A study of Mus musculus with 12 samples.

Results

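The response of erythroid cells to a NOTCH ligand was compared between cells without IKAROS and wild-type cells, culture by culture, in 12 RNA-seq libraries from 6 cultures. For each culture and gene, log2(normalized count + 1) on OP9 was subtracted from that on OP9-DL1, and the 3 Ik-Null differences were set against the 3 Ik-WT differences. The mean of the 3 Ik-Null differences minus that of the 3 Ik-WT differences is called the gap. All 12 libraries of the series enter, as 6 differences. The cells came from e14.5 fetal livers of CD1 mice, carry the erythroid surface marker Ter119 by their label, and were kept for 48 h with erythropoietin on stroma. The 4 groups, of 3 libraries each, were Ik-Null on OP9-DL1, Ik-Null on OP9, Ik-WT on OP9-DL1 and Ik-WT on OP9. Ik-Null cells are mutant for Ikzf1, and Ik-WT cells are wild type for it. OP9 is a mouse bone marrow stromal line, and OP9-DL1 is the same line made to express the ligand Delta-like 1 at all times, so its cells differ from OP9 in more than a pulse of ligand. Culture numbers are 1, 2 and 3 for Ik-Null and 1, 3 and 4 for Ik-WT. Neither the labels nor the methods say whether a culture holds 1 embryo or a pool, and the number of embryos behind each p-value is therefore unknown.

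NOTCH receptors are cut after they bind a ligand on a neighbouring cell, and the freed intracellular domain joins the DNA-binding protein RBPJ and turns target genes on. IKAROS is a zinc-finger protein of blood cells that binds DNA at a short core, GGGAA, and brings chromatin remodelers to its genes. The RBPJ core, TGGGAA, contains the IKAROS core. IKAROS is known as a repressor of many NOTCH targets, which the study cites for lymphoid, myeloid and erythroid cells. The difference between the 2 responses asks, gene by gene, whether the ligand-bearing stroma moved a transcript by the same factor with and without IKAROS. A positive value says that OP9-DL1 over OP9 was higher in Ik-Null than in Ik-WT cultures, whatever the sign of either response.

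No gene passed the test of the difference. Of 13769 genes averaging 5 or more normalized counts, 0 were called at an adjusted p under 0.05 with a difference of at least 0.8 on the log2 scale (limma on the 6 culture differences with Benjamini-Hochberg adjustment), which is 0% of those tested. The smallest adjusted p was 0.0519, shared by 5 genes, and 16 genes lay under 0.1 (0.116%). At an unadjusted p under 0.05 stood 783 genes above 0 (5.69%) and 430 below 0 (3.12%). By sign alone 49.4% of genes lay above 0, and the median difference was -0.0033. The 6 differences of a gene did not overlap between the genotypes, with all Ik-Null values above, in 1031 genes (7.49%) and, with all Ik-Null values below, in 913 genes (6.63%). The response was positive in all Ik-Null cultures and negative in all Ik-WT cultures in 273 genes (1.98%), and the reverse in 234 genes (1.7%).

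The count of 0 calls depends on the settings: other fits called up to 44 genes. That count came from edgeR on recovered reads without Ik-Null culture 3, and DESeq2 on the same reads called 12. The typical SE was 0.61 for genes with a mean of 5 to 20 counts and 0.096 for those of 1000 or more, so a difference had to be about 1.32 in low genes and 0.21 in abundant genes for its 95% interval to leave out 0. At an unadjusted p under 0.05 the genes above 0 had a median difference of 0.58, and 582 of the 783 combined a positive Ik-Null mean with a negative Ik-WT mean. A further 120 were negative in both genotypes, less so in Ik-Null, and 80 were positive in both, more so in Ik-Null. Of the 430 below 0, with a median of -0.37, a negative Ik-Null mean went with a positive Ik-WT mean in 348.

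**Figure D1:**
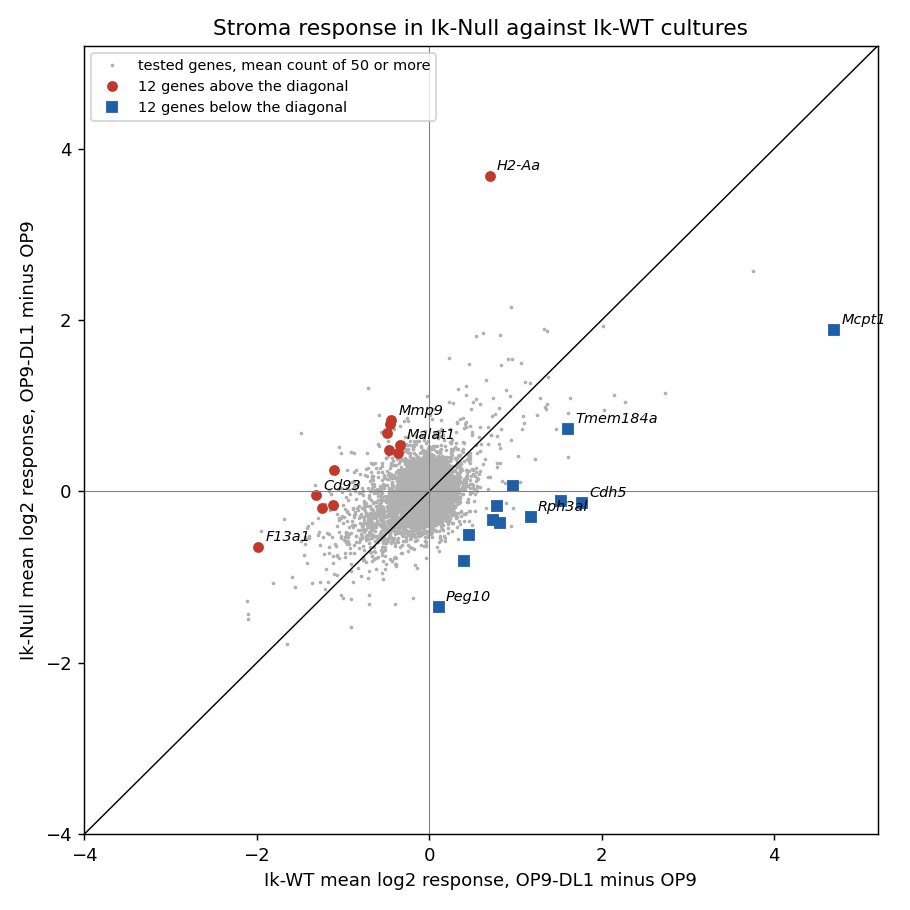
Mean log2 difference between OP9-DL1 and OP9 in 3 Ik-Null cultures (vertical axis) against that in 3 Ik-WT cultures (horizontal axis) for genes averaging 50 or more normalized counts; the black line marks equal responses, red circles are the 12 genes above it and blue squares the 12 below it with the smallest p under the naming rule. H2-Aa lies farthest above the line and Mcpt1 farthest below it among the marked genes, and Dll1, at 7.83 in Ik-Null and 6.91 in Ik-WT cultures, lies outside the axes.

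Each genotype responded on its own, and most genes called in either had a mean of the same sign in the other. The share of all genes with the same sign in both genotypes was not counted. The response was called higher in 70 genes (0.508%) and lower in 31 (0.225%) in Ik-Null cultures, and higher in 62 genes (0.45%) and lower in 140 (1.02%) in Ik-WT cultures. Of the 140 genes lower in Ik-WT, 130 were also negative in Ik-Null cultures, which the choice did not use, with a median of -0.50 there and -1.07 in Ik-WT. Of the 62 higher in Ik-WT, 57 were positive in Ik-Null cultures, with a median of 1.27 there and 1.59 in Ik-WT. In the other direction, 67 of the 70 genes higher in Ik-Null were positive in Ik-WT, with medians of 1.54 in Ik-Null and 0.83 in Ik-WT, and 30 of the 31 lower in Ik-Null were negative in Ik-WT, with medians of -0.99 in Ik-Null and -0.91 in Ik-WT. The choice of genes by size in one genotype fixes part of the gap between these medians, which was not read as a difference.

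The 3 Ik-WT cultures resembled one another in their response more than the Ik-Null cultures did. Across 9961 genes with a mean of at least 50 counts, the differences of pairs of Ik-Null cultures correlated at 0.18 to 0.43, and those of pairs of Ik-WT cultures at 0.50 to 0.58. Ik-Null culture 2 stood apart, with 0.34 and 0.18 to the other Ik-Null cultures and -0.04 to 0.16 to the Ik-WT cultures, whereas Ik-Null cultures 1 and 3 reached 0.41 to 0.52 with the Ik-WT cultures. These correlations run across genes, which are not replicates, and describe the libraries only. Where leaving out 1 culture turned the sign of a list's median gap given here, or moved it by over 1.5 times, the median without that culture is given.

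Depth and identity were checked in all libraries. Recovered reads numbered 19889576 to 31624477 in the 10 libraries where they could be read back, and total normalized counts lay between 18285417 and 30026638. Ikzf1 had normalized counts of 2719, 2314 and 1721 on OP9-DL1 and 2633, 2189.7 and 1817 on OP9 in Ik-Null cultures 1, 2 and 3, against 2721, 2699.6 and 2599 on OP9-DL1 and 2534, 2573 and 2424 on OP9 in Ik-WT cultures 1, 3 and 4. The null allele lacks the last translated exon only, so a count over the whole gene does not check the genotype. The ligand gene Dll1 had normalized counts of 387, 394 and 523 on OP9-DL1 and 0, 1.26 and 2.01 on OP9 in Ik-Null cultures 1, 2 and 3, against 203, 436 and 484 on OP9-DL1 and 0.959, 5.58 and 0.952 on OP9 in Ik-WT cultures 1, 3 and 4. All 6 cultures were far higher on OP9-DL1, which matches the stroma labels. Ik-Null culture 1 and Ik-WT culture 3 held Y-linked reads (Ddx3y at 2410 and 2240 normalized counts on OP9-DL1 and OP9 in the Ik-Null culture, and 1591 and 1531 in the Ik-WT culture) and the other 4 held at most 16.1, so both libraries of a culture matched in embryo sex. The beta-globin gene Hbb-b1 alone took 7.96% to 15.9% of the counts of a library.

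Neat1, Malat1, F13a1, Ly6e and Vcan were the 5 genes with the smallest adjusted p. Malat1 and Neat1 are long noncoding RNAs that stay in the nucleus, in speckles and paraspeckles. Malat1 (ENSMUSG00000092341, chromosome 19, 5795690 to 5802672, minus strand in GRCm38) had normalized counts of 63089, 117097 and 63184 on OP9-DL1 and 48531, 63016 and 49068 on OP9 in Ik-Null cultures 1, 2 and 3, against 57868, 18491 and 27564 on OP9-DL1 and 71891, 24121 and 34506 on OP9 in Ik-WT cultures 1, 3 and 4. Every Ik-Null culture was higher on OP9-DL1 and every Ik-WT culture lower. The differences were 0.38, 0.89 and 0.36 in Ik-Null cultures, against -0.31, -0.38 and -0.32 in Ik-WT cultures, and they differed by 0.89 (SE 0.13, 95% interval 0.60 to 1.17, adjusted p = 0.0519). For Neat1, chosen after its values were seen, the differences of 0.38, 0.78 and 0.62 in Ik-Null cultures, against -0.19, -0.11 and -0.11 in Ik-WT cultures gave 0.73 (SE 0.10, 95% interval 0.51 to 0.95, adjusted p = 0.0519), with no overlap. Its mean response was 0.59 in Ik-Null and -0.14 in Ik-WT cultures, both under the size of 0.8 asked of a call.

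F13a1 encodes the A chain of coagulation factor XIII, made by monocytes and platelets. It had normalized counts of 562, 1523 and 481 on OP9-DL1 and 1121, 2133 and 660.1 on OP9 in Ik-Null cultures 1, 2 and 3, against 129, 213 and 155 on OP9-DL1 and 388, 1176 and 586 on OP9 in Ik-WT cultures 1, 3 and 4. All 6 cultures were lower on OP9-DL1, with log2 differences of -0.99, -0.49 and -0.45 in Ik-Null cultures, against -1.58, -2.46 and -1.92 in Ik-WT cultures. The Ik-Null values were nearer to 0 without overlap, as the rule that chose the gene required. The gap was 1.34 (SE 0.20, 95% interval 0.90 to 1.78, adjusted p = 0.0519). In bulk RNA, fewer cells of a type and less RNA per cell cannot be told apart. Vcan, a matrix proteoglycan made by monocytes and fibroblasts, had normalized counts of 337, 983 and 669 on OP9-DL1 and 451, 865 and 798 on OP9 in Ik-Null cultures 1, 2 and 3, against 179, 494 and 317 on OP9-DL1 and 389, 1109.6 and 672 on OP9 in Ik-WT cultures 1, 3 and 4. On OP9-DL1 it fell in Ik-WT cultures (mean response -1.12, adjusted p = 0.000206), whereas the Ik-Null values lay on both sides of 0, and the responses differed by 0.96 (SE 0.14, 95% interval 0.64 to 1.27, adjusted p = 0.0519).

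Mmp9 encodes a gelatinase stored by neutrophils. Its normalized counts were 1123, 1227 and 443 on OP9-DL1 and 529, 603 and 339.6 on OP9 in Ik-Null cultures 1, 2 and 3, against 53.6, 322 and 146 on OP9-DL1 and 69.0, 547 and 169 on OP9 in Ik-WT cultures 1, 3 and 4. The 3 Ik-Null cultures were higher on OP9-DL1 and the 3 Ik-WT cultures lower, and the mean response of 0.83 was called in Ik-Null cultures (adjusted p = 0.0122). The differences were 1.08, 1.02 and 0.38 in Ik-Null cultures, against -0.36, -0.76 and -0.20 in Ik-WT cultures, a gap of 1.27 (SE 0.20, 95% interval 0.84 to 1.70, adjusted p = 0.0594). Cd93, a receptor of monocytes, endothelium and early progenitors, fell by 1.31 on the log2 scale in Ik-WT cultures (adjusted p = 0.000614) and had differences of -0.40, 0.12 and 0.14 in Ik-Null cultures. The gap for Cd93 was 1.26 (SE 0.22, 95% interval 0.79 to 1.74, adjusted p = 0.0874).

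H2-Aa, the alpha chain of an MHC class II molecule that presents peptides on dendritic cells, B cells and macrophages, had the largest difference of the 12 genes above 0. Its normalized counts were 138, 267 and 55.4 on OP9-DL1 and 9.88, 29.0 and 2.01 on OP9 in Ik-Null cultures 1, 2 and 3, against 44.4, 117 and 112 on OP9-DL1 and 12.5, 169 and 60.9 on OP9 in Ik-WT cultures 1, 3 and 4. All Ik-Null cultures were higher on OP9-DL1 (mean response 3.69, adjusted p = 0.000176), while the Ik-WT cultures lay on both sides of 0, with the highest count on OP9 of all 6 cultures in Ik-WT culture 3. The gap was 2.99 (SE 0.48, 95% interval 1.94 to 4.03, adjusted p = 0.0706). Its partner chain H2-Ab1, chosen after its values were seen, had differences of 2.65, 2.11 and 3.59 in Ik-Null cultures, against 2.29, -0.56 and 1.56 in Ik-WT cultures and a gap of 1.69 (SE 0.63, 95% interval 0.32 to 3.06, adjusted p = 0.476), with overlap between the genotypes.

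The other 6 genes named above 0 had the same order, which the rule that chose them fixed in advance. Prkab2, a regulatory subunit of the energy sensor AMPK, had differences of 0.18, 0.84 and 0.33 in Ik-Null cultures, against -0.43, -0.31 and -0.35 in Ik-WT cultures, and a gap of 0.81 (SE 0.14, 95% interval 0.50 to 1.11, adjusted p = 0.0874). Tifab, an inhibitor of the TRAF6 adaptor TIFA, gave 0.51, 0.87 and 0.96 in Ik-Null cultures, against -0.75, -0.63 and 0.03 in Ik-WT cultures. Napsa, an aspartic protease, gave -0.08, 0.51 and 0.33 in Ik-Null cultures, against -1.18, -1.44 and -0.68 in Ik-WT cultures. F10, the coagulation factor X precursor, was negative in all cultures, at -0.35, -0.03 and -0.22 in Ik-Null cultures, against -1.13, -1.49 and -1.12 in Ik-WT cultures. Sp110, an interferon-induced nuclear body protein, gave 0.33, 0.92 and 0.19 in Ik-Null cultures, against -0.63, -0.24 and -0.52 in Ik-WT cultures. Efr3b, a plasma membrane anchor of a phosphatidylinositol kinase, gave 0.46, 0.82 and 0.79 in Ik-Null cultures, against -0.45, -0.41 and -0.62 in Ik-WT cultures. Gaps for these last 5 genes were 1.23, 1.35, 1.05, 0.94 and 1.18, with adjusted p of 0.0966, 0.109, 0.114, 0.124 and 0.124.

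**Figure D2:**
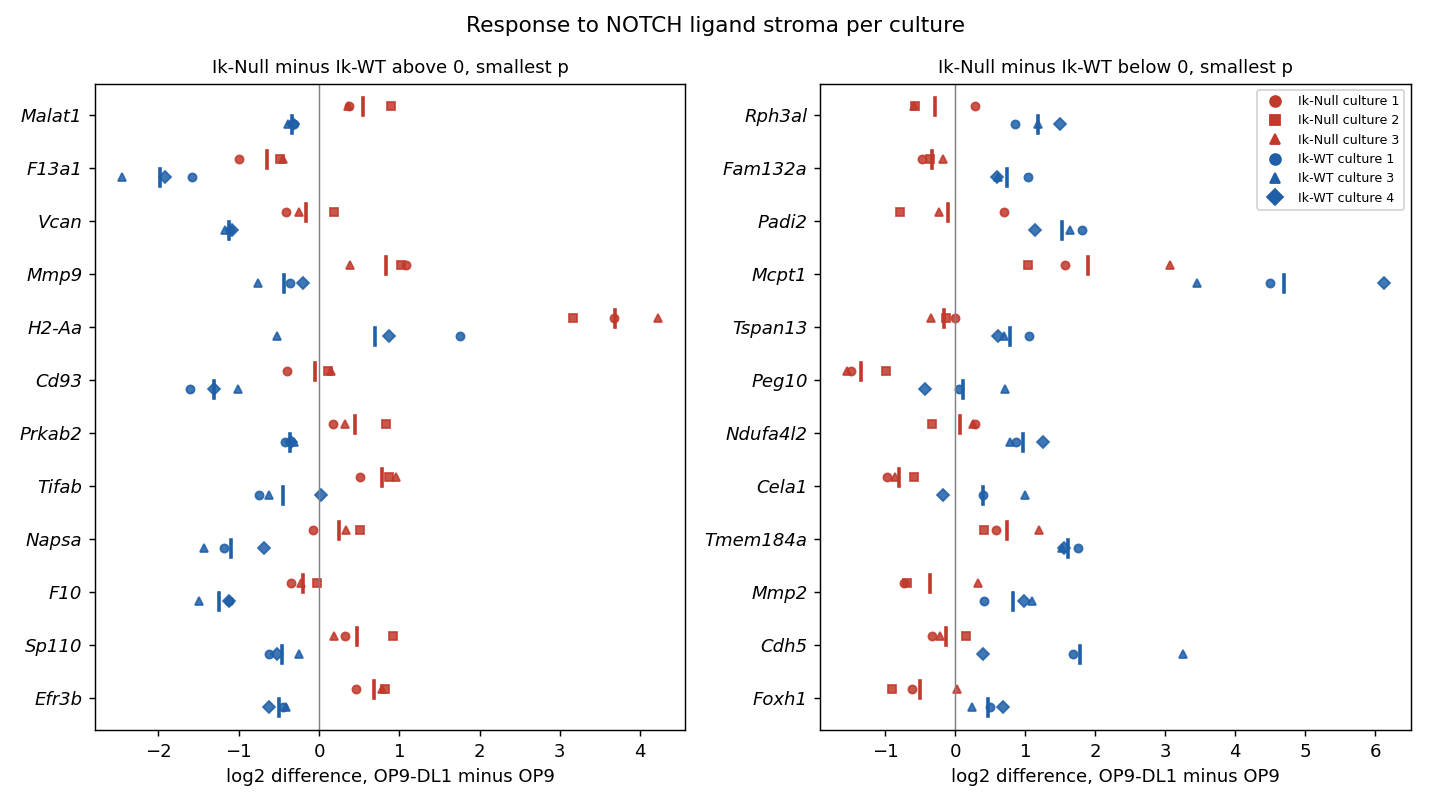
Log2 difference between OP9-DL1 and OP9 (horizontal axis) in each culture for the 12 genes above 0 (left) and the 12 below 0 (right) with the smallest p; red marks are Ik-Null and blue marks Ik-WT cultures, shapes give the culture number and vertical bars the mean of 3. By the rule that chose them the 2 colours do not overlap in any gene, and in Malat1 the Ik-Null cultures lie between 0.36 and 0.89 and the Ik-WT cultures between -0.38 and -0.31.

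Rph3al had the smallest p among genes below 0. It encodes a protein of vesicle secretion that binds RAB GTPases, and its normalized counts were 149, 145 and 88.6 on OP9-DL1 and 122, 216 and 135 on OP9 in Ik-Null cultures 1, 2 and 3, against 439, 363 and 341 on OP9-DL1 and 243, 159.8 and 120.0 on OP9 in Ik-WT cultures 1, 3 and 4. In Ik-WT cultures it rose on OP9-DL1 (mean response 1.18, adjusted p = 0.00278), and 2 of 3 Ik-Null cultures were lower there. The differences were 0.28, -0.57 and -0.60 in Ik-Null cultures, against 0.85, 1.18 and 1.498 in Ik-WT cultures, a gap of -1.47 (SE 0.24, 95% interval -1.998 to -0.95, adjusted p = 0.0729). Padi2, which turns arginine into citrulline in proteins, had normalized counts of 42.8, 49.8 and 33.2 on OP9-DL1 and 25.9, 87.0 and 39.2 on OP9 in Ik-Null cultures 1, 2 and 3, against 632, 281 and 156 on OP9-DL1 and 179, 89.8 and 70.5 on OP9 in Ik-WT cultures 1, 3 and 4. Padi2 likewise rose in Ik-WT cultures (mean response 1.53, adjusted p = 0.00418), with Ik-Null values on both sides of 0 and a gap of -1.64 (SE 0.34, 95% interval -2.36 to -0.91, adjusted p = 0.13). Rph3al, Padi2 and Tmem184a are on the list of genes that the study named desensitized, chosen on these libraries, so their order here is not independent evidence.

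The promoters of Rph3al and Padi2 are shown because these genes had the smallest p of the desensitized list, and because the IKAROS core lies inside the RBPJ core. Both windows hold 300 bases around the annotated start (RefSeq, GRCm38.p6), 5′ to 3′ on the strand of the gene, with each GGGAA or its reverse complement TTCCC in capitals. For Rph3al the RefSeq start lies inside the GENCODE gene, which begins at 75938429 on the minus strand.
Rph3al, chr11:75925842-75926141, minus strand: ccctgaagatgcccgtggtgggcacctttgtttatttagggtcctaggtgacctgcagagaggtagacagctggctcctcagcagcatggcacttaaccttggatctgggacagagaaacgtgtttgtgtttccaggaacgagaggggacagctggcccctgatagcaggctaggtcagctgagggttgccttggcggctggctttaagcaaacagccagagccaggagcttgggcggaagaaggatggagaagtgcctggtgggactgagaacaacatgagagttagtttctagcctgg
Padi2, chr4:140906110-140906409, plus strand: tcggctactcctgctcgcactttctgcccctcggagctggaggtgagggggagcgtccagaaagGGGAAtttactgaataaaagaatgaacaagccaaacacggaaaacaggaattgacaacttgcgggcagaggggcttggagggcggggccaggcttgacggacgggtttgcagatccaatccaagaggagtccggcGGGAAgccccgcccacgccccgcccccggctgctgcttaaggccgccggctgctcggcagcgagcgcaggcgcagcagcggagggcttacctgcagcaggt
The Padi2 window held 2 matches to GGGAA and 0 to TGGGAA, and the Rph3al window held 0 of either. Of 32851 windows of the same length, 62.7% held GGGAA and 25.6% held TGGGAA on either strand. A match is a description of letters and not a binding site.

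Mcpt1 had the lowest gap of the 13769 genes tested, on low counts in Ik-WT cultures. It encodes a protease of mucosal mast cells, and its normalized counts were 278, 358 and 671 on OP9-DL1 and 92.7, 174 and 79.4 on OP9 in Ik-Null cultures 1, 2 and 3, against 21.7, 44.0 and 135 on OP9-DL1 and 0, 3.1 and 0.952 on OP9 in Ik-WT cultures 1, 3 and 4. Every culture was higher on OP9-DL1, with log2 differences of 1.57, 1.04 and 3.06 in Ik-Null cultures, against 4.502, 3.46 and 6.12 in Ik-WT cultures, a gap of -2.80 (SE 0.61, 95% interval -4.12 to -1.48, adjusted p = 0.164). The Ik-WT libraries on OP9 held 0, 5 and 1 reads, so the Ik-WT response depends on the pseudocount, and the gap ranged from -4.18 to -1.34 over the alternatives. In Ik-WT culture 1 the count on OP9-DL1 was at least 7.53-fold higher than the floor of 3 reads in the OP9 library. Mcpt2, the neighbouring mast cell protease, gave 1.38, 1.11 and 1.55 in Ik-Null cultures, against 1.82, 2.26 and 4.28 in Ik-WT cultures, a gap of -1.44 (SE 0.58, 95% interval -2.69 to -0.19, adjusted p = 0.505). Reads of such near-identical protease genes may be split between them, which was not tested.

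Cdh5, the cadherin of endothelial junctions, had normalized counts of 136, 482 and 378 on OP9-DL1 and 172, 434 and 439 on OP9 in Ik-Null cultures 1, 2 and 3, against 23.7, 14.46 and 6.58 on OP9-DL1 and 6.71, 0.62 and 4.76 on OP9 in Ik-WT cultures 1, 3 and 4. Its level was far higher in Ik-Null than in Ik-WT libraries on either stroma, and its Ik-WT difference rests on counts of at most 23.7. The gap was -1.91 (SE 0.54, 95% interval -3.07 to -0.75, adjusted p = 0.289). Peg10, an imprinted gene of placenta and liver, gave -1.49, -0.99 and -1.55 in Ik-Null cultures, against 0.05, 0.71 and -0.44 in Ik-WT cultures, and its mean response of -1.34 was called in Ik-Null cultures (adjusted p = 0.015). Fam132a, the secreted protein adipolin, gave -0.47, -0.36 and -0.18 in Ik-Null cultures, against 1.04, 0.60 and 0.59 in Ik-WT cultures. Tmem184a, a membrane protein, was higher on OP9-DL1 in all 6 cultures, at 0.59, 0.41 and 1.20 in Ik-Null cultures, against 1.75, 1.53 and 1.56 in Ik-WT cultures. Gaps for Peg10, Fam132a and Tmem184a were -1.45, -1.08 and -0.88, with adjusted p of 0.194, 0.13 and 0.27.

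The remaining 5 genes named below 0 had the same order without overlap, which the rule that chose them fixed in advance. Tspan13, a tetraspanin, gave 0.00, -0.14 and -0.35 in Ik-Null cultures, against 1.06, 0.69 and 0.60 in Ik-WT cultures. Ndufa4l2, a mitochondrial protein of hypoxic cells, gave 0.28, -0.34 and 0.26 in Ik-Null cultures, against 0.86, 0.78 and 1.25 in Ik-WT cultures. Cela1, an elastase, gave -0.97, -0.59 and -0.87 in Ik-Null cultures, against 0.40, 0.99 and -0.18 in Ik-WT cultures. Mmp2, a gelatinase of stromal cells, gave -0.73, -0.69 and 0.33 in Ik-Null cultures, against 0.40, 1.09 and 0.98 in Ik-WT cultures. Foxh1, a partner of SMAD proteins, gave -0.63, -0.91 and 0.02 in Ik-Null cultures, against 0.49, 0.23 and 0.68 in Ik-WT cultures. Their adjusted p were 0.193, 0.262, 0.27, 0.289 and 0.289, with gaps of -0.95, -0.90, -1.21, -1.19 and -0.97.

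**Figure D3:**
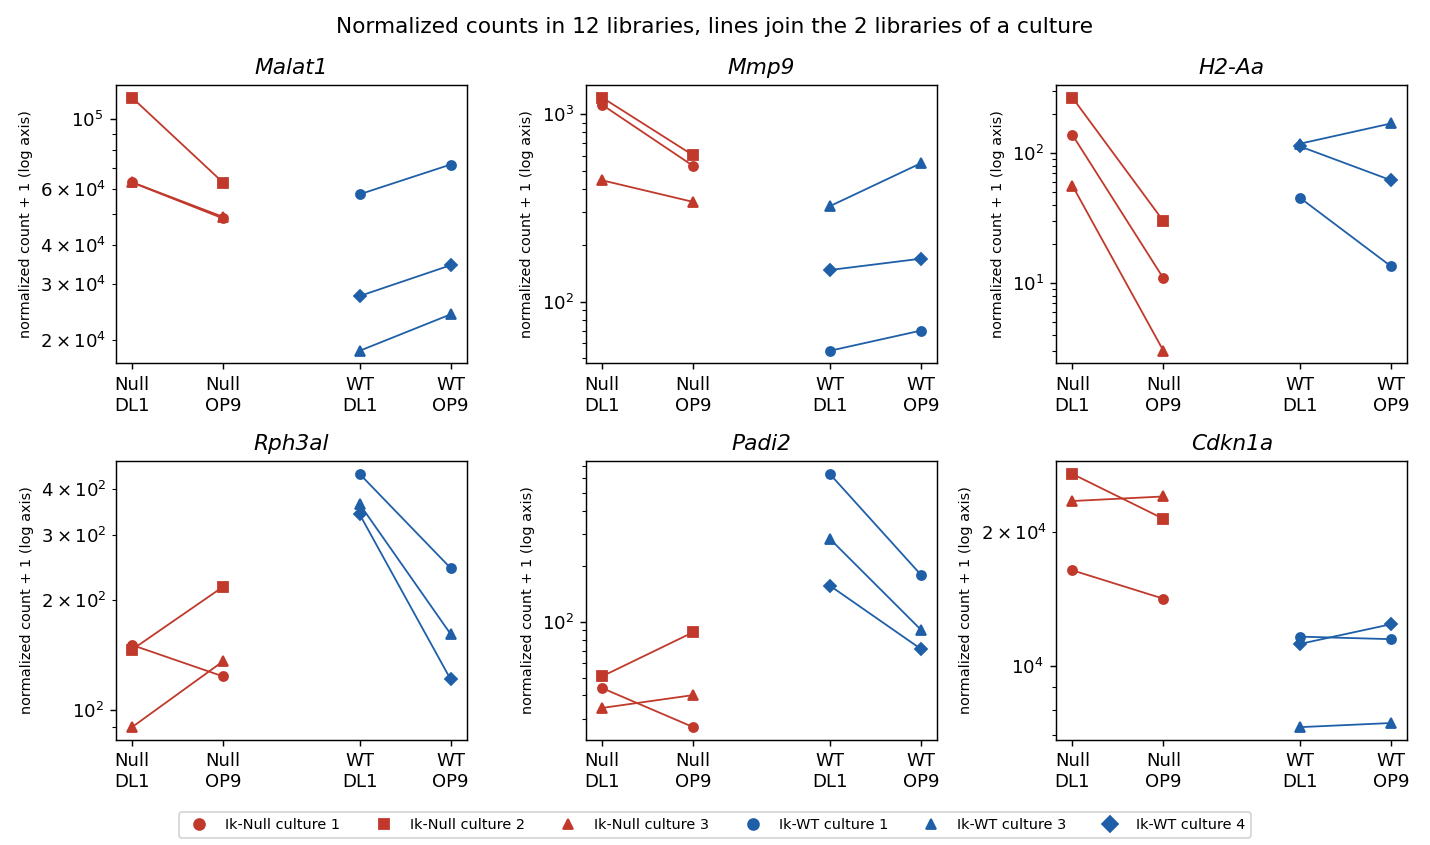
Normalized counts plus 1 on a log axis in each of the 12 libraries for 6 genes; red lines are Ik-Null and blue lines Ik-WT cultures, each line joins OP9-DL1 (left) to OP9 (right) of a culture, and shapes give the culture number. Lines slope opposite ways in the genotypes for Malat1 and Mmp9, all Ik-WT lines of Rph3al and Padi2 are higher on OP9-DL1, and Cdkn1a differs mainly in level between genotypes.

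The study singled out a group of genes, of which 13 were tested. Cdkn1a encodes the cell cycle inhibitor P21 and had normalized counts of 16407, 26966 and 23451 on OP9-DL1 and 14170.2, 21399 and 24009.7 on OP9 in Ik-Null cultures 1, 2 and 3, against 11653, 7307 and 11224 on OP9-DL1 and 11502, 7464 and 12423 on OP9 in Ik-WT cultures 1, 3 and 4. All Ik-Null libraries were above all Ik-WT libraries on the same stroma, but the response itself was small, at 0.21, 0.33 and -0.03 in Ik-Null cultures, against 0.02, -0.03 and -0.15 in Ik-WT cultures. The gap was 0.22 (SE 0.10, 95% interval 0.01 to 0.44, adjusted p = 0.559), and the exact two-sided permutation p over 6 cultures was 0.3. Trp53, which encodes the transcription factor p53 that induces Cdkn1a, had normalized counts of 3831, 5160.0 and 3797 on OP9-DL1 and 3013, 3568 and 3147 on OP9 in Ik-Null cultures 1, 2 and 3, against 1936, 1553 and 1364 on OP9-DL1 and 1842, 1401 and 1490.0 on OP9 in Ik-WT cultures 1, 3 and 4. The ligand stroma was higher in all 3 Ik-Null cultures and in 2 of 3 Ik-WT cultures, by 0.35, 0.53 and 0.27 in Ik-Null cultures, against 0.07, 0.15 and -0.13 in Ik-WT cultures, without overlap. Its gap was 0.35 (SE 0.10, 95% interval 0.13 to 0.57, adjusted p = 0.303), and its exact permutation p was 0.1, the smallest that 3 against 3 cultures can give.

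Zfp446, a zinc-finger gene, gave 0.56, 0.35 and 0.67 in Ik-Null cultures, against -0.38, 0.24 and -0.13 in Ik-WT cultures, and a gap of 0.62 (SE 0.22, 95% interval 0.14 to 1.09, adjusted p = 0.438), with an exact permutation p of 0.1. Ikzf2, which encodes the IKAROS relative HELIOS, gave -0.63, 0.17 and -0.14 in Ik-Null cultures, against -1.23, -0.74 and -0.95 in Ik-WT cultures, a gap of 0.77 (SE 0.31, 95% interval 0.11 to 1.43, adjusted p = 0.502) with an exact permutation p of 0.1, and its Ik-WT counts were at most 29.5. These 2 genes, with Trp53 and Cdkn1a, were the 4 of 13 at an unadjusted p under 0.05 above 0, against 5.69% of all genes. No overlap above was found in 3 of the 13, against 7.49% of all genes. None of the 13 was at an unadjusted p under 0.05 below 0, against 3.12% of all genes.

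Nrarp, Hes1 and Prdm16 lay below 0 with wide intervals. Nrarp, a feedback inhibitor of NOTCH that binds its intracellular domain, had normalized counts of 45.4, 40.8 and 57.4 on OP9-DL1 and 40.8, 37.8 and 28.1 on OP9 in Ik-Null cultures 1, 2 and 3, against 70.1, 117 and 97.9 on OP9-DL1 and 43.1, 36.6 and 58.1 on OP9 in Ik-WT cultures 1, 3 and 4. It rose in Ik-WT cultures (mean response 1.03, adjusted p = 0.0403), and the differences were 0.15, 0.10 and 1.004 in Ik-Null cultures, against 0.69, 1.65 and 0.74 in Ik-WT cultures. The gap of -0.61 had a 95% interval of -1.35 to 0.14. Hes1, a transcriptional repressor and direct NOTCH target, had normalized counts of 24.7, 24.2 and 39.3 on OP9-DL1 and 6.18, 15.1 and 26.1 on OP9 in Ik-Null cultures 1, 2 and 3, against 19.6, 55.0 and 29.6 on OP9-DL1 and 13.4, 7.43 and 11.4 on OP9 in Ik-WT cultures 1, 3 and 4 and was higher on OP9-DL1 in all 6 cultures. Its gap was -0.50 (95% interval -1.72 to 0.72). Prdm16, a chromatin regulator of stem cells, gave 3.14, -0.28 and 0.49 in Ik-Null cultures, against 1.94, 1.65 and 2.11 in Ik-WT cultures, with Ik-Null counts of at most 7.79, and a gap of -0.79 (95% interval -2.41 to 0.83). The gap of Prdm16 was -1.80 without Ik-Null culture 1 and -0.087 without Ik-Null culture 2.

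Cxcl1, Il6 and Mmp23, also named by the study, were not shown to differ. Cxcl1, a neutrophil attractant, rose in both genotypes, by 1.43, 1.56 and 1.19 in Ik-Null cultures, against 1.05, 1.73 and 1.48 in Ik-WT cultures (mean response 1.39 with adjusted p = 0.0129 in Ik-Null and 1.42 with adjusted p = 0.00685 in Ik-WT), and the gap of -0.03 had an interval of -0.76 to 0.70. For the cytokine gene Il6 the gap was -0.08 (-1.32 to 1.16), and for the protease gene Mmp23 it was -0.11 (-1.20 to 0.99). These intervals do not show that the responses are equal, and the sign of all 3 gaps changed with the settings. Ikzf1 had a gap of -0.07 (-0.25 to 0.10), Notch1 of 0.29 (-0.28 to 0.85), and Dll1 of 0.93 (-0.14 to 1.99). The Dll1 gap depends on the pseudocount and ranged from 0.12 to 2.07 over the alternatives. Dll1 encodes the ligand that the OP9-DL1 line was made to express. Whether its reads come from the stroma or from the erythroid cells was not tested. Its OP9 libraries held 0 and 1 reads in Ik-Null cultures 1 and 2, and 1, 9 and 1 reads in Ik-WT cultures 1, 3 and 4. In Ik-Null culture 3, whose recovered reads were not used, the normalized count on OP9 was 2.01.

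NOTCH pathway genes as a group showed no common direction. Of 9 receptors and ligands 7 were tested, 5 above and 2 below 0, with 0 at an unadjusted p under 0.05. The 5 include Dll1, which the OP9-DL1 line was made to express. The receptor gene Notch3 gave 0.67, -0.04 and 1.62 in Ik-Null cultures, against 0.77, 0.73 and -0.21 in Ik-WT cultures, a gap of 0.32 (SE 0.42, 95% interval -0.58 to 1.22, adjusted p = 0.846). Of 41 effectors and targets 32 were tested, 14 above and 18 below 0, with a median of -0.05 beside -0.0033 over all genes. The median was -0.10 without Ik-Null culture 1, 0.0004 without Ik-Null culture 2, -0.079 without Ik-Null culture 3, -0.013 without Ik-WT culture 1 and -0.017 without Ik-WT culture 3. Nfkb2 and Psenen were the 2 of 32 at an unadjusted p under 0.05, both above 0, near the 5.69% of all genes. Nfkb2, a NF-kappaB subunit, gave 0.39, 0.42 and 0.21 in Ik-Null cultures, against -0.17, 0.04 and -0.04 in Ik-WT cultures, and Psenen, a part of the gamma-secretase that cuts NOTCH, gave 0.14, 0.30 and -0.09 in Ik-Null cultures, against -0.12, -0.18 and -0.10 in Ik-WT cultures. Dtx3l, a ubiquitin ligase also induced by interferon, gave 0.56, 0.75 and -0.05 in Ik-Null cultures, against -0.40, 0.51 and 0.02 in Ik-WT cultures, with overlap.

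The study drew up its own lists of responsive genes. Of 219 tested genes of the list it called additive, 118 lay above and 101 below 0, with a median of 0.04, 12 of 219 at an unadjusted p under 0.05 above and 11 of 219 below, against 5.69% and 3.12% of all genes. The count above 0 is near the share over all genes. The median was -0.0093 without Ik-Null culture 2, 0.075 without Ik-Null culture 3, -0.0066 without Ik-WT culture 1, 0.058 without Ik-WT culture 3 and 0.074 without Ik-WT culture 4. Sept1, a septin, had the smallest p there, with 0.29, 0.10 and 0.10 in Ik-Null cultures, against 0.66, 0.67 and 0.71 in Ik-WT cultures and a gap of -0.51 (SE 0.10, 95% interval -0.73 to -0.30, adjusted p = 0.114). Of 21 genes on the desensitized list 11 were tested, and 10 of these lay below 0, with a median of -0.62. At an unadjusted p under 0.05 stood 4 of the 11 below 0, against 3.12% of all genes. The median response of these 11 was 0.70, -0.13 and 0.74 in Ik-Null cultures 1, 2 and 3, against 1.09, 1.48 and 1.16 in Ik-WT cultures 1, 3 and 4. Without Ik-Null culture 2 their median gap was -0.44. Cd247, the zeta chain of the T cell receptor, gave -0.60, -0.86 and -2.001 in Ik-Null cultures, against 1.16, 1.48 and 0.07 in Ik-WT cultures at a mean of 7.5 counts. Of 81 tested genes that the study listed as responding to the stroma in Ik-WT cells, 57 lay below 0, with a median of -0.32. At an unadjusted p under 0.05 stood 4 of the 81 above, against 5.69% of all genes, and 13 below, against 3.12%. That median was -0.11 without Ik-Null culture 2, -0.50 without Ik-WT culture 1 and -0.17 without Ik-WT culture 3. These lists were chosen by the study on these libraries and use the same contrasts, so their signs are a description.

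Genes of the p53 pathway lay above 0 almost throughout, with small gaps. Of 31 listed genes 30 were tested, 28 above and 2 below 0, with a median of 0.21. At an unadjusted p under 0.05 stood 11 above, against 5.69% of all genes, and 0 below, and 10 had no overlap above, against 7.49% of all genes. The median response of the list was 0.13, 0.24 and -0.03 in Ik-Null cultures 1, 2 and 3, against -0.19, -0.06 and -0.13 in Ik-WT cultures 1, 3 and 4. Mdm2, the ubiquitin ligase that degrades p53 and is its target, had normalized counts of 11136, 13588 and 9614 on OP9-DL1 and 9135, 9726 and 8690.2 on OP9 in Ik-Null cultures 1, 2 and 3, against 5357, 2596 and 3790.3 on OP9-DL1 and 5635, 2675 and 3969 on OP9 in Ik-WT cultures 1, 3 and 4, differences of 0.29, 0.48 and 0.15 in Ik-Null cultures, against -0.07, -0.04 and -0.07 in Ik-WT cultures, and a gap of 0.37 (SE 0.09, 95% interval 0.17 to 0.56, adjusted p = 0.253). Mdm4, its partner, gave 0.17, 0.28 and 0.01 in Ik-Null cultures, against -0.16, -0.12 and -0.25 in Ik-WT cultures, and Ccng1, a cyclin induced by p53, gave 0.17, 0.17 and -0.03 in Ik-Null cultures, against -0.24, -0.05 and -0.12 in Ik-WT cultures. The median gap was 0.13 without Ik-Null culture 2, and 0.13 with all libraries scaled to the same total.

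Interferon-stimulated genes also lay above 0, on levels that differed widely among Ik-Null cultures. Of 51 listed genes 47 were tested, 45 above and 2 below 0, with a median of 0.39. At an unadjusted p under 0.05 stood 16 of the 47 above 0, against 5.69% of all genes, and 0 below, against 3.12%. No overlap above was found in 7 of the 47, against 7.49% of all genes. Mx1, an antiviral GTPase, had normalized counts of 192, 2219 and 2522 on OP9-DL1 and 148, 1024 and 2246 on OP9 in Ik-Null cultures 1, 2 and 3, against 11.3, 65.4 and 32.1 on OP9-DL1 and 15.3, 115 and 48.6 on OP9 in Ik-WT cultures 1, 3 and 4. Its differences were 0.37, 1.11 and 0.17 in Ik-Null cultures, against -0.40, -0.81 and -0.58 in Ik-WT cultures, a gap of 1.15 (SE 0.23, 95% interval 0.65 to 1.65, adjusted p = 0.124). Irf1, which encodes an interferon-induced transcription factor, gave 0.54, 0.93 and 0.17 in Ik-Null cultures, against -0.47, -0.02 and -0.27 in Ik-WT cultures, Ifi47, a GTPase, gave 0.66, 0.90 and 0.10 in Ik-Null cultures, against -0.28, 0.16 and -0.75 in Ik-WT cultures, and Oas2, a sensor of double-stranded RNA, gave 0.36, 0.83 and -0.01 in Ik-Null cultures, against -0.91, 0.10 and -0.70 in Ik-WT cultures, the last 2 with overlap.

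The summed count of the interferon list was 111235, 770108 and 1040590 on OP9-DL1 and 85424, 515491 and 1093880 on OP9 in Ik-Null cultures 1, 2 and 3, against 96893, 127677 and 94612 on OP9-DL1 and 114180, 93220 and 92298 on OP9 in Ik-WT cultures 1, 3 and 4. Ik-Null cultures 2 and 3 thus stood apart from the other 4 on both stromas. The median response of the list was 0.42, 0.73 and 0.01 in Ik-Null cultures 1, 2 and 3, against -0.38, 0.43 and -0.07 in Ik-WT cultures 1, 3 and 4, with overlap between the genotypes. Ik-Null culture 3, which had the highest sums, had a median response of 0.01. The median gap was 0.24 without Ik-Null culture 2, 0.64 without Ik-Null culture 3, 0.19 without Ik-WT culture 1 and 0.65 without Ik-WT culture 3. Whether the high level bears on the response was not tested.

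MHC class I genes, many of them interferon-induced, followed the same order. Of 22 tested, 18 lay above 0 with a median of 0.33, 6 of 22 at an unadjusted p under 0.05 above, against 5.69% of all genes, and 0 below, against 3.12%. The median was 0.17 without Ik-Null culture 2. Tap1, a peptide transporter, gave 0.71, 0.75 and 0.05 in Ik-Null cultures, against -0.46, 0.09 and -0.36 in Ik-WT cultures, its partner Tap2 gave 0.30, 0.41 and 0.23 in Ik-Null cultures, against -0.50, -0.13 and 0.00 in Ik-WT cultures, and the class I heavy chain gene H2-D1 gave 0.16, 0.58 and 0.18 in Ik-Null cultures, against -0.28, 0.10 and -0.06 in Ik-WT cultures. H2-T23, a nonclassical class I gene, gave 0.31, 0.52 and 0.14 in Ik-Null cultures, against -0.08, 0.09 and 0.02 in Ik-WT cultures. Ly6e, an interferon-induced surface protein named after its values were seen, had differences of 0.22, 0.52 and 0.09 in Ik-Null cultures, against -0.38, -0.57 and -0.43 in Ik-WT cultures and a gap of 0.73 (SE 0.11, 95% interval 0.49 to 0.97, adjusted p = 0.0519). Class I heavy chain genes are near-identical copies, so reads may be split among them.

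**Figure D4:**
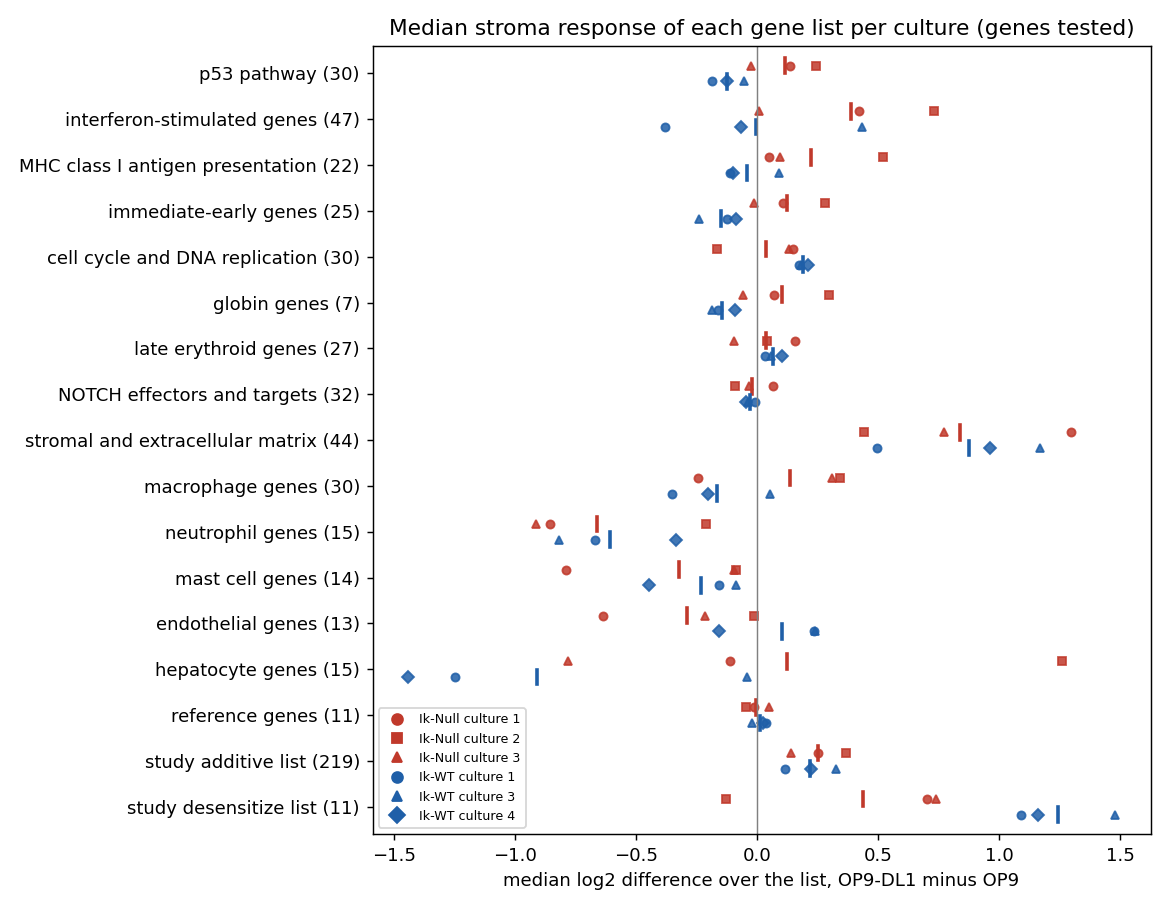
Median log2 difference between OP9-DL1 and OP9 over the tested genes of each list (horizontal axis), per culture; red marks are Ik-Null and blue marks Ik-WT cultures, shapes give the culture number, vertical bars the mean of 3, and the number of genes tested stands in brackets. The 2 genotypes do not overlap for p53 pathway genes (-0.03 to 0.24 in Ik-Null, -0.19 to -0.06 in Ik-WT), and Ik-Null culture 2 lies highest in the interferon and hepatocyte lists.

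Immediate-early genes, which are induced within minutes of a stimulus and of cell handling, lay above 0 in 21 of 25 tested. Their median gap was 0.26, with 10 of 25 at an unadjusted p under 0.05 above, against 5.69% of all genes, 0 below, and 11 of 25 without overlap above, against 7.49% of all genes. Dusp1, a phosphatase of MAP kinases, gave 0.43, 0.63 and 0.14 in Ik-Null cultures, against -0.21, -0.11 and -0.06 in Ik-WT cultures, a gap of 0.53 (SE 0.11, 95% interval 0.28 to 0.77, adjusted p = 0.157). Fosb, an AP-1 subunit, gave 0.29, 0.51 and 0.04 in Ik-Null cultures, against -0.39, -0.70 and -0.64 in Ik-WT cultures, a gap of 0.85 (SE 0.19, 95% interval 0.45 to 1.26, adjusted p = 0.173). Zfp36, which destabilises short-lived mRNAs, gave 0.20, 0.57 and 0.03 in Ik-Null cultures, against -0.21, -0.33 and -0.28 in Ik-WT cultures. In all 3 genes every Ik-Null culture was positive and every Ik-WT culture negative. Only these 3 of the 25 had that order, against 1.98% of all genes. They were named for the smallest p in the list, which favours such an order. The list median was 0.11, 0.28 and -0.01 in Ik-Null cultures 1, 2 and 3, against -0.12, -0.24 and -0.09 in Ik-WT cultures 1, 3 and 4, and the time from harvest to lysis was not stated.

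Cell cycle and DNA replication genes lay on the other side. Of 30 tested, 28 were below 0, with a median of -0.13. At an unadjusted p under 0.05 stood 3 of the 30 below, against 3.12% of all genes, and 0 above, against 5.69%. The list median was 0.15, -0.17 and 0.13 in Ik-Null cultures 1, 2 and 3, against 0.17, 0.18 and 0.21 in Ik-WT cultures 1, 3 and 4, so that only Ik-Null culture 2 was negative. Cdc6 and Cdt1, which load the replicative helicase, gave 0.13, -0.34 and 0.07 in Ik-Null cultures, against 0.23, 0.30 and 0.33 in Ik-WT cultures and, for Cdt1, 0.12, -0.53 and 0.03 in Ik-Null cultures, against 0.31, 0.22 and 0.15 in Ik-WT cultures. E2f8 and Tyms, a repressor and a nucleotide enzyme of S phase, had gaps of -0.25 and -0.19. The median gap was -0.026 without Ik-Null culture 2.

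Erythroid genes, which define the sorted cells, differed little. Of 27 late erythroid genes tested, 12 lay above and 15 below 0, with a median of -0.04 and all 27 above 0 counts in every library. The median was -0.10 without Ik-Null culture 1, -0.022 without Ik-Null culture 2, 0.033 without Ik-Null culture 3 and -0.015 without Ik-WT culture 3. Kel, a blood group antigen, was the only one at an unadjusted p under 0.05, with 0.26, 0.27 and 0.09 in Ik-Null cultures, against 0.00, -0.02 and 0.03 in Ik-WT cultures. Tfrc, the transferrin receptor, and Hemgn, an erythroid nuclear protein, had gaps of -0.23 and -0.19. All 7 tested globin genes lay above 0, with a median of 0.19 and 5 of 7 without overlap, against 7.49% of all genes. Hbb-y, an embryonic beta-type globin, gave 0.12, 0.30 and 0.17 in Ik-Null cultures, against -0.20, -0.81 and -0.20 in Ik-WT cultures, a gap of 0.60 (SE 0.15, 95% interval 0.28 to 0.92, adjusted p = 0.237). Hba-x, the embryonic alpha-type zeta globin, gave 0.32, 1.16 and -0.06 in Ik-Null cultures, against -0.24, -0.56 and -0.06 in Ik-WT cultures, and Hbb-bh1, another embryonic beta-type gene, gave 0.10, 0.14 and -0.12 in Ik-Null cultures, against -0.09, -0.20 and -0.13 in Ik-WT cultures. Levels of the embryonic beta-type genes stood apart in Ik-Null culture 1. Hbb-y had normalized counts of 42927 on OP9-DL1 and 39554 on OP9 there, and at most 1845 in the other libraries. Hbb-bh1 had 315630 and 295238 there, and at most 15842 in the other libraries. Globins share sequence, and the median gap of the list was 0.13 without Ik-Null culture 2 and 0.11 at the same total.

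Marker genes of other cell types were detected in every group, although the study's methods describe a sort for Ter119 after the co-culture. The stromal and matrix list, 43 of 45 genes above 0 in all libraries, summed to 8063 to 12283 in Ik-Null on OP9-DL1, 6293 to 7436 in Ik-Null on OP9, 4933 to 6822 in Ik-WT on OP9-DL1 and 3674 to 4376 in Ik-WT on OP9. Its median response was 1.30, 0.44 and 0.77 in Ik-Null cultures 1, 2 and 3, against 0.49, 1.17 and 0.96 in Ik-WT cultures 1, 3 and 4, and 19 of 44 tested genes lay above 0 in the gap. The genotypes overlapped in this response, and the median gap of -0.07 became -0.24 without Ik-Null culture 1, 0.19 without Ik-Null culture 2, 0.013 without Ik-Null culture 3, -0.22 without Ik-WT culture 1, 0.046 without Ik-WT culture 3 and -0.042 without Ik-WT culture 4. Fn1, fibronectin, gave 0.59, 0.02 and 0.07 in Ik-Null cultures, against -0.73, -0.43 and -0.48 in Ik-WT cultures, a gap of 0.78 (SE 0.14, 95% interval 0.47 to 1.08, adjusted p = 0.0999). Col6a3, a collagen VI chain, was higher on OP9-DL1 in all 6 cultures, at 2.31, 3.12 and 1.02 in Ik-Null cultures, against 0.77, 1.11 and 0.97 in Ik-WT cultures, and Cav1, the caveolar coat protein, gave 0.88, 0.54 and 0.76 in Ik-Null cultures, against 1.06, 1.90 and 1.47 in Ik-WT cultures.

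Macrophage genes, 28 of 32 above 0 in all libraries, summed to 32421 to 71430 in Ik-Null on OP9-DL1, 39143 to 63942 in Ik-Null on OP9, 14408 to 24116 in Ik-WT on OP9-DL1 and 17060 to 28489 in Ik-WT on OP9. Of 30 tested, 21 lay above 0, with a median gap of 0.17. At an unadjusted p under 0.05 stood 6 of the 30 above, against 5.69% of all genes, and 3 below, against 3.12%. The median was 0.47 without Ik-Null culture 1, 0.11 without Ik-Null culture 2, 0.063 without Ik-WT culture 1 and 0.34 without Ik-WT culture 3. Mpeg1, a pore-forming protein, gave -0.50, 0.31 and 0.23 in Ik-Null cultures, against -0.84, -0.63 and -0.41 in Ik-WT cultures, and Lyz2, lysozyme, gave -0.88, -0.13 and -0.45 in Ik-Null cultures, against -0.93, -1.18 and -0.80 in Ik-WT cultures. Slc40a1, the iron exporter ferroportin, gave 0.44, 0.96 and 0.99 in Ik-Null cultures, against 0.04, 0.48 and 0.45 in Ik-WT cultures. Ctsk, a collagen-cutting cathepsin, lay on the other side, with -1.495, -0.90 and -1.33 in Ik-Null cultures, against 0.60, -0.51 and -0.64 in Ik-WT cultures. The neutrophil list summed to 25840 to 91990 in Ik-Null on OP9-DL1, 43631 to 94783 in Ik-Null on OP9, 7002 to 32003 in Ik-WT on OP9-DL1 and 10482 to 56353 in Ik-WT on OP9, with a median gap of 0.04 over 15 genes. This median was 0.19 without Ik-Null culture 1, -0.18 without Ik-Null culture 2, 0.16 without Ik-Null culture 3, 0.11 without Ik-WT culture 1, -0.06 without Ik-WT culture 3 and 0.16 without Ik-WT culture 4. The share of F13a1, Vcan, Mmp9, Cd93 and H2-Aa that comes from such cells was not tested.

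Mast cell genes lay below 0 in 10 of 14 tested, with a median of -0.18, and summed to 2823 to 5746 in Ik-Null on OP9-DL1, 3571 to 5605 in Ik-Null on OP9, 647 to 1715 in Ik-WT on OP9-DL1 and 842 to 2144 in Ik-WT on OP9. Mcpt8, a basophil protease, gave -1.003, 0.26 and 0.78 in Ik-Null cultures, against -1.77, -0.32 and -0.68 in Ik-WT cultures, opposite in order to Mcpt1, and the defining gene Fcer1a was below the minimum mean of 5. Endothelial genes lay below 0 in 9 of 13 tested, with a median of -0.27. The mast cell median was 0.087 without Ik-Null culture 1, -0.33 without Ik-Null culture 2, -0.52 without Ik-Null culture 3, -0.28 without Ik-WT culture 1 and 0.017 without Ik-WT culture 3. The endothelial median was 0.036 without Ik-Null culture 1, -0.49 without Ik-Null culture 2 and -0.15 without Ik-WT culture 3. Lyve1, a hyaluronan receptor, gave -0.85, -0.71 and -0.997 in Ik-Null cultures, against 1.55, 1.41 and -0.35 in Ik-WT cultures, and Tek, the angiopoietin receptor, gave -0.52, -0.11 and -0.91 in Ik-Null cultures, against 0.42, 0.82 and 0.30 in Ik-WT cultures. Of 8 lymphoid genes tested 4 lay on either side, with Il7r, the interleukin-7 receptor, at -0.94, -0.63 and -0.65 in Ik-Null cultures, against -1.91, -1.002 and -1.45 in Ik-WT cultures. Of 16 megakaryocyte genes tested 9 lay above 0, and Vwf, von Willebrand factor, was the only one at an unadjusted p under 0.05, with a gap of -0.26.

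Hepatocyte genes, which mark another cell type of the fetal liver, had a median gap of 0.96, with 14 of 15 above 0. Their median response was -0.11, 1.26 and -0.78 in Ik-Null cultures 1, 2 and 3, against -1.25, -0.04 and -1.44 in Ik-WT cultures 1, 3 and 4. Afp, alpha-fetoprotein, gave -0.06, 1.42 and -0.55 in Ik-Null cultures, against -1.23, 0.21 and -1.12 in Ik-WT cultures, Trf, transferrin, gave -0.15, 0.90 and -0.53 in Ik-Null cultures, against -0.99, -0.08 and -1.44 in Ik-WT cultures, and Fgb, a fibrinogen chain, gave -0.03, 1.46 and -0.74 in Ik-Null cultures, against -1.19, 0.04 and -1.45 in Ik-WT cultures. Orm1, an acute-phase protein, lay below 0, at -0.65, 0.17 and -0.71 in Ik-Null cultures, against 0.00, 1.46 and 1.39 in Ik-WT cultures. The genotypes overlapped for each of these 4 genes, and the list median was 0.41 without Ik-Null culture 2. Summed counts lay between 3772 and 10497 in Ik-Null on OP9-DL1, 4171 and 8937 in Ik-Null on OP9, 3565 and 6765 in Ik-WT on OP9-DL1 and 6252 and 10475 in Ik-WT on OP9.

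Reference genes, used as a check of scale, had a median gap of -0.01 over 11 genes, 5 above and 6 below 0. The median was -0.046 without Ik-Null culture 2, -0.095 without Ik-Null culture 3, -0.045 without Ik-WT culture 1 and 0.024 without Ik-WT culture 4. Gapdh, a glycolytic enzyme, gave 0.30, 0.32 and 0.16 in Ik-Null cultures, against 0.08, -0.29 and -0.23 in Ik-WT cultures, a gap of 0.40 (SE 0.12, 95% interval 0.14 to 0.67, adjusted p = 0.361). When all libraries were scaled to the same total, the median gap of all genes became -0.077, and the share above 0 among genes at an unadjusted p under 0.05 was 42.6%, against 64.6% with the deposited scaling. The list medians named above kept their sign under this scaling for the p53, interferon, MHC class I, immediate-early, globin and cell cycle lists. The median turned to -0.048 for the additive list and to -0.032 for neutrophil genes.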

How the data were processed

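The deposited signal values are gene counts that the authors divided by DESeq2 size factors, 1 column per library; the submitters' processing notes list DESeq2 1.0.19, HTSeq 0.5.3 for counting, TopHat2 2.0.9 for alignment and CASAVA 1.8. For the strand setting and the annotation release: not given in the sources used here. Comparison tables by the authors hold group means, log2 fold changes, errors and p-values, and were not used. Whole reads were recovered for 100% of values within 0.01; in the Ik-Null culture 3 libraries the step lay close to 1, so their recovered reads were not used and the count tests left them out (edgeR 4.0.16, DESeq2 1.42.0). For each culture, log2(value + 1) on OP9 was taken from that on OP9-DL1, and the 3 Ik-Null and 3 Ik-WT differences were compared with limma 3.58.1 (eBayes with trend, R 4.3.3) over 13769 genes with a mean of at least 5. A call needed an adjusted p under 0.05 and a size of at least 0.8. The study calls the replicates biological, and the sex genes differed among the cultures of each genotype. The number of embryos per culture is not given, so p-values measure the spread between these samples, part of which may be technical.

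Same-numbered libraries of a genotype deviated together (r of 0.58 to 0.83, against -0.70 to 0.20 for other numbers), so the culture was kept as the pair within a genotype. Named genes were the study's own, the 12 above and 12 below 0 with the smallest p among genes with a mean of at least 50, a size of at least 0.8 and no overlap, and up to 4 per gene list (6 for the study's lists), with others said to be chosen after their values were seen. Members and lists were chosen with earlier results of these data known. The fit was run on simulated data with a culture effect common to both stromas. There the response varied between cultures by count noise only, so the simulation does not check error rates for these data. Alternatives were other pseudocounts, filters, scalings, blocks, variance fits and count tests, leaving out each culture, and female cultures only, the last chosen after seeing the data.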

Additional observations from a re-analysis of the deposited data

How the results depend on the processing

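The count of called genes was 7 with a pseudocount of 5 (6 above 0, 1 below), 1 with libraries scaled to the same total (above 0), 3 with trend and robust variance fits (above 0), 44 with edgeR (40 above, 4 below) and 12 with DESeq2 (all above), both without Ik-Null culture 3, and 8 in female cultures only (7 above, 1 below), the last chosen after seeing the data. With the replicate block across genotypes, which pairs cultures that share only a number, it was 11 (10 above, 1 below). Leaving out 1 culture gave 0 to 6 calls (0 to 6 above, 0 to 2 below): 4 without Ik-Null culture 1, 3 without Ik-Null 2, 6 without Ik-Null 3, 2 without Ik-WT 1 and 2 without Ik-WT 3.

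At an unadjusted p under 0.05 stood 1213 genes (783 above, 430 below). The count was 59 with no replicate block (47 above, 12 below), 652 with the block across genotypes (419 above, 233 below) and 2063 with edgeR (1249 above, 814 below), with 259 below in DESeq2 and 712 below at the same total. Leaving out 1 culture gave 766 to 2116 (487 to 1224 above, 205 to 892 below), the highest without Ik-Null culture 3. Of the study's genes 4 passed, against 0 with no replicate block, 2 with the block across genotypes, 2 with DESeq2 and 1 to 4 with 1 culture left out.

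Of 1876 gene values under 19 alternatives, 20 had another sign, in 6 genes, and the cause was not tested. The gap of Il6 was 0.13 with a pseudocount of 5, 0.33 without Ik-Null culture 1, 0.10 without Ik-WT 1, 0.32 without Ik-WT 3 and 0.73 in female cultures. Against these it was -0.66 without Ik-WT 4 and -1.05 with the block across genotypes. For Mmp23 it was 0.13 with edgeR, 0.17 with DESeq2, 0.12 without Ik-Null 3 and 0.14 without Ik-WT 3, against -0.39 without Ik-WT 1. For Cxcl1 it was 0.0046 with edgeR, 0.063 with DESeq2, 0.072 without Ik-Null 3, 0.13 without Ik-WT 3 and 0.11 in female cultures, against -0.21 without Ik-WT 1. For Notch3 it was -0.11 with edgeR, -0.10 with DESeq2, -0.12 without Ik-Null 3 and -0.0002 without Ik-WT 4, against 0.71 without Ik-Null 2. Prdm16 was at 0.018 with the block across genotypes and Hes1 at 0.11 without Ik-WT 3, against -0.9994 without Ik-WT 1. Depth limits low genes most: the median SE was 0.61 at a mean of 5 to 20 counts.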

Other observations

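The families and genes here were chosen after their values were seen. Over all genes 49.4% lay above 0, and at an unadjusted p under 0.05 stood 5.69% above and 3.12% below. MHC class II genes lay above 0 in 9 of 10 tested, with a median gap of 1.11 and median responses of 1.65 in Ik-Null and 0.50 in Ik-WT cultures. Above 0 at an unadjusted p under 0.05 stood 3 of the 10, against 5.69% of all genes. Histone genes lay above 0 in 30 of 38, with a median gap of 0.34 and median responses of -0.0016 in Ik-Null and -0.25 in Ik-WT cultures. Long intergenic noncoding RNAs lay above 0 in 59.3% of 241, and 26 of them passed an unadjusted p under 0.05 on that side and 2 on the other, against 49.4% above 0 over all genes. Ribosomal protein genes lay above 0 in 26.8% of 153, with a median gap of -0.054, and mitochondrial genes had a median of -0.005 over 14.

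Adamdec1, a metalloprotease of dendritic cells and macrophages, was at 0 on OP9 in all Ik-Null cultures and had 117, 232 and 176 normalized counts on OP9-DL1 there. In Ik-Null cultures 1 and 2 this was at least 31.5- and 61.4-fold higher than a floor of 3 reads in the OP9 library. No bound is given for Ik-Null culture 3, whose recovered reads were not used. In Ik-WT cultures 1 and 4, also at 0 on OP9, it was at least 2.51- and 10.7-fold higher on OP9-DL1, with 7.22 and 30.4 normalized counts. In Ik-WT culture 3 it had 23.1 normalized counts on OP9-DL1 and 0.62 on OP9, where 1 read was found. Spp1, osteopontin, was lower on OP9-DL1 in all 6 cultures, by more in Ik-Null cultures, with log2 differences of -0.97, -1.11 and -0.98 in Ik-Null and -0.56, -0.58 and -0.47 in Ik-WT cultures. Ogt, the enzyme that adds N-acetylglucosamine to nuclear proteins, gave 0.18, 0.61 and 0.41 in Ik-Null and -0.26, -0.20 and -0.20 in Ik-WT cultures. Ccr2, a chemokine receptor of monocytes, gave -1.09, -0.47 and 0.19 in Ik-Null and -1.85, -2.60 and -1.41 in Ik-WT cultures.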
